A study of Mus musculus with 4 samples.

Results

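Macrophages can be driven towards an inflammatory state, in which they make nitric oxide and itaconate, or towards an alternative state linked to tissue repair. The 10 genes described here are effectors and receptors of these states. They were taken as a fixed list of gene symbols, 10 of 22180 genes on the array. Each was read from its brightest probe set, by mean over the 4 arrays. Nos2, Acod1 and Socs3 form the inflammatory group, and Arg1, Retnla, Chil3, Mrc1, Il4ra, Igf1 and Tgfb1 the alternative group. Each had 1 probe set, apart from Socs3 with its second, dimmer one.

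Liver macrophages were sorted 48 h after blood flow was restored to ischaemic livers, and were divided by Ly6C, a surface protein of recently recruited monocytes. The mice, of strain C57/BL6 per the labels, were 10 wild type (WT) and 10 mPGES-1 knock out (KO). mPGES-1 is the inducible prostaglandin E synthase encoded by Ptges. The 4 groups were WT Ly6C-hi, WT Ly6C-low, mPGES-1 KO Ly6C-hi and mPGES-1 KO Ly6C-low, with 1 Mouse Gene 2.0 ST array each, and no array holds cells of an unoperated liver. Sex, age, the way the knockout was made, the length of ischaemia and how many mice fed each array have no record in the sources used here. With 1 array per group a difference between 2 arrays has no replicate check and no p-value, and neighbouring levels cannot be ranked against a replicate spread.

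Classically activated macrophages respond to interferon-gamma and microbial products. They express Nos2, the inducible nitric oxide synthase, which uses arginine, and Acod1, the mitochondrial enzyme that makes itaconate. Socs3 is a feedback inhibitor of cytokine receptors that signal through STAT3. Interleukin-4 and interleukin-13 act through Il4ra and STAT6 and in mice induce Arg1, which competes for arginine, the secreted resistin-like protein Retnla, the chitinase-like lectin Chil3 and the mannose receptor Mrc1. Igf1 and Tgfb1 encode growth factors that macrophages release during repair.

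Checks of the labels gave mixed results. Ly6c2, which encodes Ly6C, read 7.70 and 8.94 in the Ly6C-hi arrays (WT, then KO) against 3.84 and 4.33 in the Ly6C-low arrays, on the log2 scale used for every level and difference here. Ptges was not lower under the KO label, at 6.32 and 6.20 against 5.65 and 5.69 in WT. Whether its probe set covers the deleted exons has no record in the sources used here, and the KO arrays are therefore called "labelled KO". The macrophage genes Adgre1 (7.77 to 8.53) and C1qa (7.28 to 8.94) were above 6 in all 4 arrays. Of 13 Kupffer cell markers, which include both, 10 reached 6 in WT Ly6C-low and 6 in labelled KO Ly6C-low, against 5 and 3 in the Ly6C-hi arrays. Of its more specific members, Clec4f (6.54), Vsig4 (7.15) and Cd5l (6.22) reached 6 in WT Ly6C-low alone. Folr2 reached it in all arrays but labelled KO Ly6C-hi, with 8.57 in WT Ly6C-low and 7.54 in labelled KO Ly6C-low. Timd4 reached it in no array, nor did Marco and Cd163 of that list. Markers of other cell types also read above 6: of 15 neutrophil markers, 13 reached 6 in WT Ly6C-hi and 11 in labelled KO Ly6C-hi, and of 15 sinusoidal endothelial markers, 14 did so in WT Ly6C-low and 15 in labelled KO Ly6C-low. The level of 6 served as the floor because the level exceeded by 2.5% of 1390 olfactory and vomeronasal receptor genes, taken as background, lay between 5.34 and 6.09.

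Of the 10 genes, 8 reached a level of 6 in at least 1 array, and Nos2 and Socs3 did not in any. Among the inflammatory genes only Acod1 was measured clearly. Acod1 read 10.68 (WT Ly6C-hi), 6.58 (WT Ly6C-low), 7.62 (labelled KO Ly6C-hi) and 6.09 (labelled KO Ly6C-low). The WT Ly6C-hi array stood 3.06 above the next one, labelled KO Ly6C-hi, while the Ly6C-low arrays lay within 0.49 of each other. Both Ly6C-hi arrays were above both Ly6C-low arrays.

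Nos2 read 5.13, 4.19, 4.55 and 3.97 in the same order of arrays. Every one of these values lies below that background level of its array (5.34, 5.99, 6.09 and 5.54), so the nitric oxide synthase was not distinguishable from background. Socs3 read 5.67, 4.30, 5.03 and 5.17 in its brighter probe set, with the WT Ly6C-hi value alone above that background level. Its other probe set read 5.16, 4.33, 5.02 and 4.55. The 2 probe sets differed in the order of the arrays, with labelled KO Ly6C-low above labelled KO Ly6C-hi in the brighter and below it in the dimmer. Differences of these 2 genes are therefore given as values, and neither was in the main test of all genes.

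**Figure D1:**
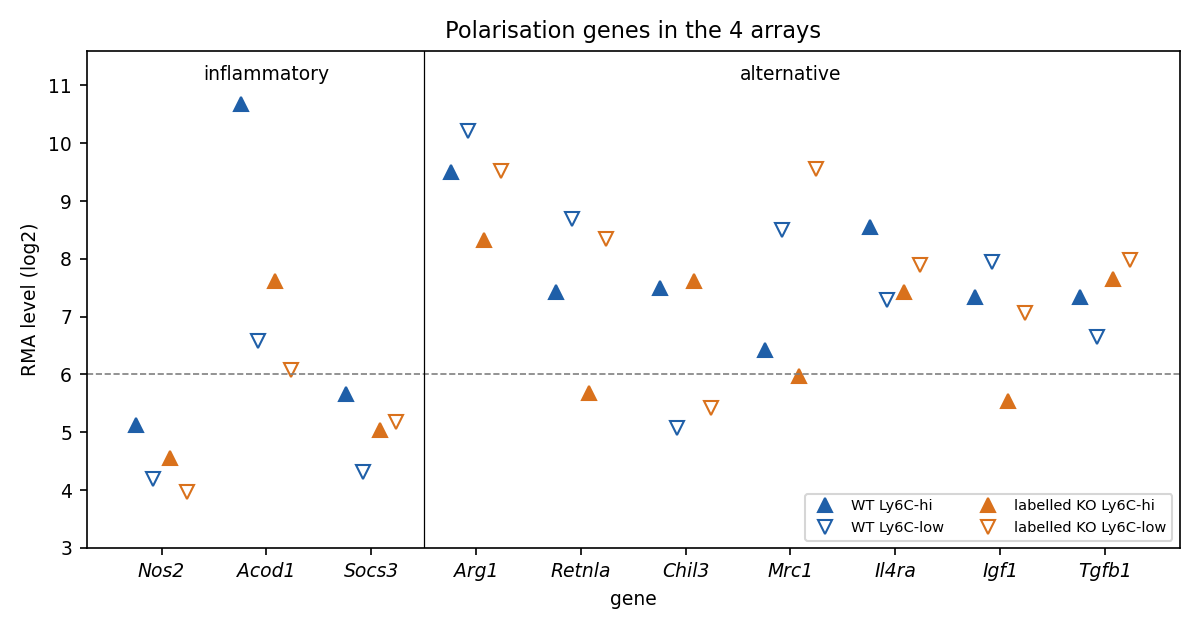
RMA level (log2) of the 10 polarisation genes in each of the 4 arrays, with 1 point per array. Upward triangles are Ly6C-hi, open downward triangles Ly6C-low, blue WT and orange labelled KO, and the dashed line is the level of 6. Acod1 in WT Ly6C-hi (10.68) stands apart from its other 3 arrays, and all points of Nos2 and Socs3 lie under the line.

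Among the alternative genes, Mrc1 and Retnla were higher in Ly6C-low and Chil3 was higher in Ly6C-hi. Mrc1 read 6.42, 8.50, 5.97 and 9.56 in the order used above, WT Ly6C-hi first and labelled KO Ly6C-low last. Both Ly6C-low arrays lay at least 2.08 above both Ly6C-hi arrays, and the labelled KO Ly6C-hi value was under the floor. Retnla read 7.43, 8.69, 5.68 and 8.35 in the same order, so the Ly6C-low arrays were close to each other and labelled KO Ly6C-hi was lowest, under the floor. Chil3 read 7.49, 5.07, 7.61 and 5.42. Its Ly6C-hi arrays differed by 0.12, its Ly6C-low arrays, both under the floor, by 0.36, and the gap between the fractions was 2.07.

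Besides Nos2 and Socs3, readings not above the background level of their own array were those of Mrc1, Retnla and Igf1 in labelled KO Ly6C-hi (against 6.09) and of Chil3 in both Ly6C-low arrays (against 5.99 in WT and 5.54 in labelled KO). Differences that use them are given as read and are not exact sizes.

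Arg1 read 9.50, 10.21, 8.32 and 9.52. WT Ly6C-low was highest, labelled KO Ly6C-hi was lowest by 1.19, and the other two were 0.02 apart. Igf1 read 7.34, 7.94, 5.54 and 7.07. Both WT arrays were above both labelled KO arrays, and labelled KO Ly6C-hi was again lowest, by 1.53 and under the floor. Tgfb1 read 7.34, 6.66, 7.66 and 7.97, with both labelled KO arrays above both WT arrays. Il4ra, the receptor chain shared by interleukin-4 and interleukin-13, read 8.56, 7.29, 7.43 and 7.89. It was highest in WT Ly6C-hi and lowest in WT Ly6C-low, with the labelled KO arrays between them.

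In WT, the fraction differences split the list. The count rule was a difference of at least 1 with a level of 6 in the brighter array, which 8 of the 10 genes reached. Of these 8, 3 were higher in Ly6C-hi, where 20.3% of 4762 genes were, and 2 were lower, where 6.57% were. Acod1 was 4.10 higher in Ly6C-hi, or 17.1-fold, and 0.315% of those genes differed by as much in that direction. Il4ra was 1.27 higher, and Chil3 read 2.42 higher, against a Ly6C-low reading not above background. Mrc1 (-2.08, a 4.24-fold difference) and Retnla (-1.26) were lower. Arg1 (-0.71), Igf1 (-0.61) and Tgfb1 (0.68) were short of 2-fold. The median gene differed by 0.30 between these arrays. With each array centred on its median gene, Arg1 was at -1.02 and Il4ra at 0.95, so that 2 genes were 2-fold higher and 3 lower, against 13% and 11.7% of 4574 genes.

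Under the KO label the same rule gave, of 8 genes, 2 higher in Ly6C-hi (4.47% of 4541 genes) and 4 lower (20.7%). Acod1 was 1.53 higher (2.89-fold), and Chil3 read 2.19 higher, against a Ly6C-low reading not above background. Lower in Ly6C-hi was Arg1 (-1.21), and Mrc1 (-3.59), Retnla (-2.67) and Igf1 (-1.53) also read lower, each with a Ly6C-hi reading not above background. Il4ra (-0.46) and Tgfb1 (-0.32) were within 2-fold. The median gene here stood at -0.37, and with centred arrays Arg1 was at -0.83, Tgfb1 at 0.06 and Socs3 at 0.24 instead of -0.14, so that 2 genes were 2-fold higher (12.3% of 4749 genes) and 3 lower (11.7%).

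**Figure D2:**
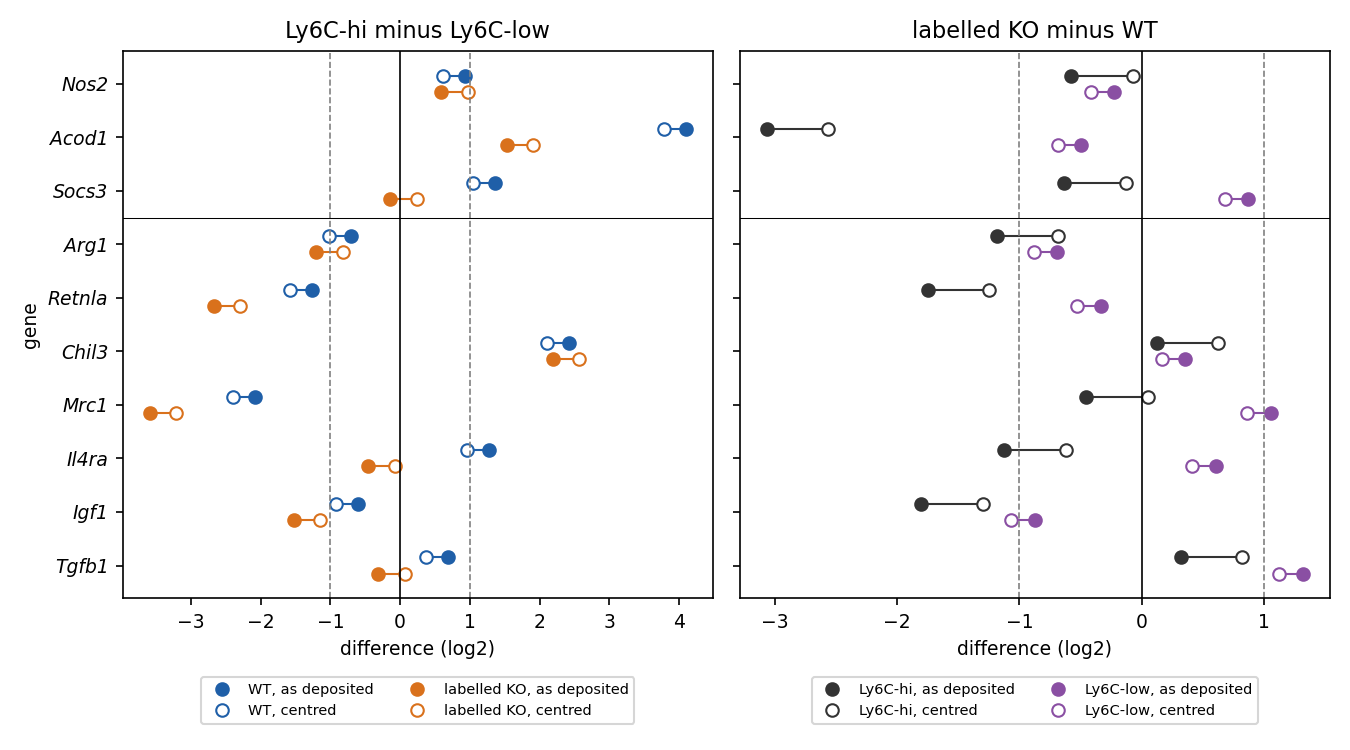
Differences (log2) of the 10 genes between fractions (left, WT and labelled KO) and between genotype labels (right, Ly6C-hi and Ly6C-low), each from 1 array per side. Filled points are the values as deposited, open points those with each array centred on its median gene, and dashed lines mark 2-fold. Mrc1, Retnla, Chil3 and Acod1 keep their side for the fraction under both labels, while Mrc1 between genotypes in Ly6C-hi moves from -0.45 to 0.05.

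Averaged over both genotype labels, 4 of the 8 genes tested passed for the fraction. The test was limma with an additive model of fraction and label over 5306 genes, which takes the label by fraction difference as its only residual, with Benjamini-Hochberg adjustment. It called 6.77% of those genes, 2.6% higher and 4.17% lower in Ly6C-hi. Acod1 rose by 2.82 ± 0.48 (SE, limma adjusted p = 3.6e-07) and Chil3 by 2.31 ± 0.52 (limma adjusted p = 0.00045) in Ly6C-hi. Mrc1 fell by 2.84 ± 0.48 (limma adjusted p = 4.2e-07) and Retnla by 1.97 ± 0.49 (limma adjusted p = 0.0018). All 4 were on the same side in both labels. At this floor each SE came from the trend with level over all genes. It leaves out how far a gene's own fraction difference varied between WT and labelled KO. Those differences were 4.10 and 1.53 for Acod1, 2.42 and 2.19 for Chil3, -2.08 and -3.59 for Mrc1, and -1.26 and -2.67 for Retnla. Chil3 reached the floor, and so entered the test, only through the Ly6C-hi arrays where it was high, so its call is not independent of that filter. The estimates of Mrc1 and Retnla use their labelled KO Ly6C-hi readings, which were not above background. Arg1 (-0.96 ± 0.37, limma adjusted p = 0.11), Igf1 (-1.07, limma adjusted p = 0.28), Il4ra (0.40, limma adjusted p = 0.87) and Tgfb1 (0.18, limma adjusted p = 0.96) did not pass. These calls rest on the floor: with all 22180 genes in the limma fit none of the 10 passed, with adjusted p of 0.14 for Acod1, 0.08 for Chil3, 0.076 for Mrc1 and 0.21 for Retnla, and with a floor of 7 Chil3 did not pass (limma adjusted p = 0.069).

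Without a test, both Ly6C-hi arrays were above both Ly6C-low arrays for Acod1 and Chil3, an arrangement seen for 20.9% of the 5306 genes (26.9% with centred arrays). The Ly6C-low arrays were above both Ly6C-hi arrays for Mrc1, Retnla and, by 0.02, Arg1, as for 28.4% of genes (28% with centred arrays). Separation of the fractions was thus common. A difference as large as theirs in WT was seen in the same direction for 1.93% of genes in the case of Mrc1 and 4.85% for Retnla.

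**Figure D3:**
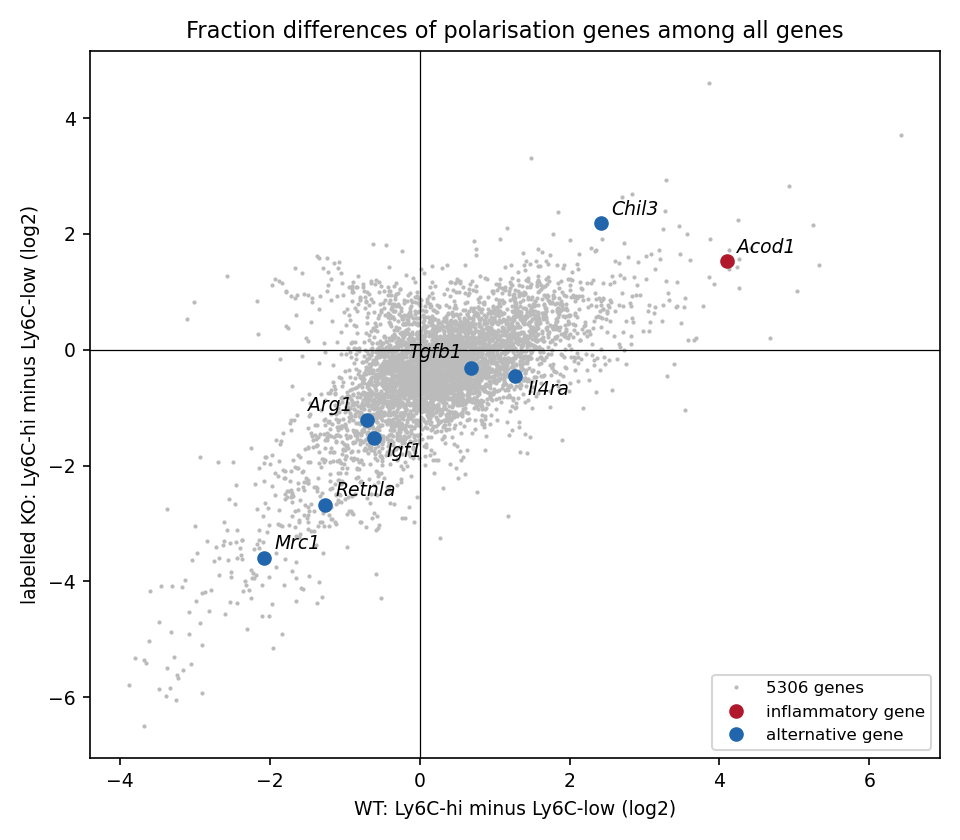
Difference between Ly6C-hi and Ly6C-low (log2) in WT (horizontal) and under the KO label (vertical) for 5306 genes with a level of 6 in at least 1 array (grey), with the 8 polarisation genes among them named. Chil3 and Acod1 lie to the upper right (2.42 and 2.19; 4.10 and 1.53), and Mrc1 (-2.08 and -3.59) and Retnla (-1.26 and -2.67) to the lower left.

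Markers of other cell types differed between the fractions together with these genes. The mean level of the 15 neutrophil markers was 9.16, 5.63, 6.88 and 5.10 (WT Ly6C-hi, WT Ly6C-low, labelled KO Ly6C-hi, labelled KO Ly6C-low). This was the same order of arrays as Acod1, which 9.08% of 5306 genes had as deposited and a larger share with centred arrays. The mean of the 15 sinusoidal endothelial markers was 5.04, 7.90, 4.45 and 9.47. Labelled KO Ly6C-low was highest and WT Ly6C-low next, as for Mrc1, which sinusoidal endothelium also expresses. The Ly6C-hi arrays are not ranked, since few of these markers reached the floor there. As deposited, 12.9% of 5306 genes had the full order of Mrc1, and with centred arrays its Ly6C-hi readings changed places. The 13 Kupffer cell markers averaged 5.91, 7.08, 5.31 and 6.63 and the 12 hepatocyte markers 5.88, 6.97, 5.59 and 6.69. Arg1, an enzyme of the hepatocyte urea cycle, shared their order, as did Retnla and 6.8% of genes (5.09% with centred arrays). Of the other urea cycle genes on the hepatocyte list, Cps1 read 4.85 to 6.09, Otc 3.32 to 5.24 and Ass1 4.47 to 5.09. Cps1 and Otc had that order as read, and Ass1 did not. Only Cps1 reached the floor, in WT Ly6C-low. Chil3 is itself on the monocyte list. The 10 inflammatory monocyte markers averaged 8.14, 6.79, 8.55 and 6.80, highest in labelled KO Ly6C-hi as Chil3 was. In limma, 12 of 13 tested neutrophil markers rose and 14 of 15 endothelial markers fell in Ly6C-hi, as did 3 of 9 hepatocyte and 3 of 10 Kupffer cell markers. Over all genes tested, 2.6% rose and 4.17% fell. Of the 15 endothelial markers, 1 reached the floor in WT Ly6C-hi and 0 in labelled KO Ly6C-hi. Of the 15 neutrophil markers, 7 reached it in WT Ly6C-low and 4 in labelled KO Ly6C-low. Calls of markers that reached the floor only where they were high are not independent of it. With all genes in the limma fit, 3 of 15 neutrophil markers rose, and 10 of 15 endothelial and 1 of 13 Kupffer cell markers fell. None of 12 hepatocyte markers passed that limma fit, and 8 were lower at an unadjusted p under 0.05. Of 10 eosinophil and basophil markers, 1 reached the floor in any array. The part of these cells in the levels of the polarisation genes was not tested. In bulk RNA of sorted cells, fewer cells of a type and less RNA per cell cannot be told apart.

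**Figure D4:**
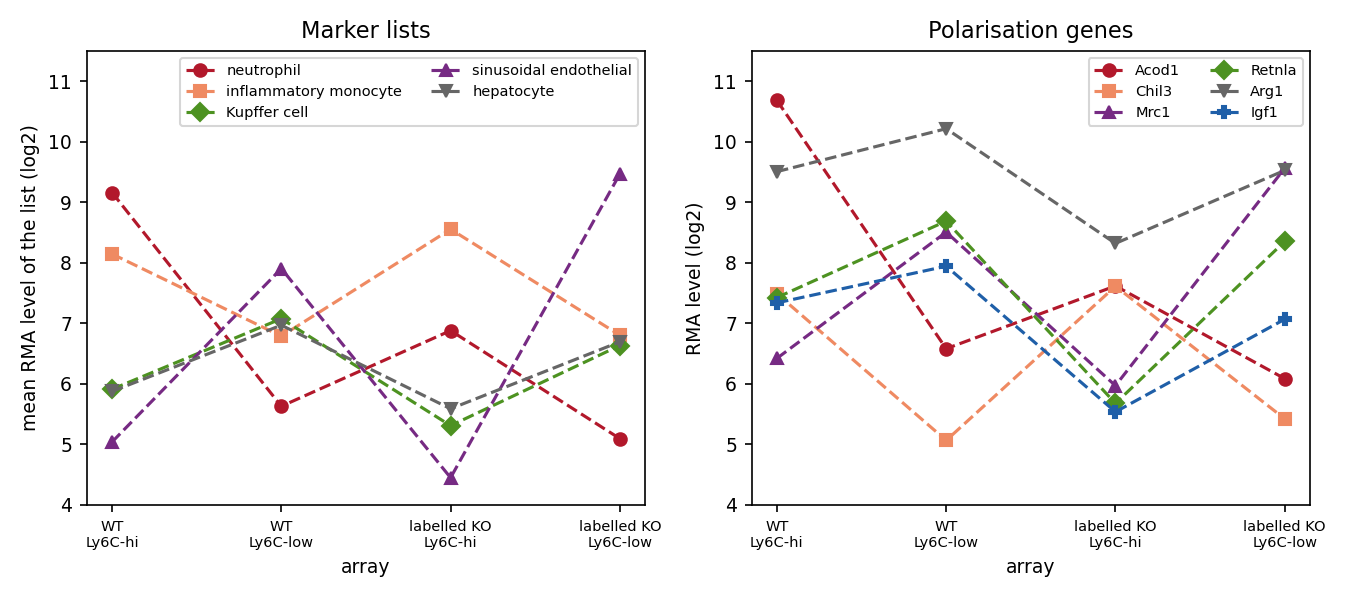
Mean RMA level (log2) of 5 marker lists (left) and RMA level (log2) of 6 polarisation genes (right) in the 4 arrays, with 1 value per array. Dashed lines only join values of one list or gene. Neutrophil markers (9.16 in WT Ly6C-hi) and Acod1 (10.68) peak in the same array, and endothelial markers (9.47) and Mrc1 (9.56) peak in labelled KO Ly6C-low.

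Genes with the most similar levels over the 4 arrays were found as the 3 nearest to each gene after subtraction of the own mean, by root mean square difference. For Acod1 they were Slfn4, a schlafen family gene, the lipolysis inhibitor G0s2, and the myeloid receptor Clec5a, at 0.06, 0.07 and 0.15. For Mrc1 they were Iigp1, an interferon-inducible GTPase, the endothelial adhesion gene Pecam1 and Cmtm8, at 0.10, 0.11 and 0.11. For Retnla they were the fatty acid receptor Cd36, Tceal9 and the hepatocyte fatty acid binding protein Fabp1. For Arg1 they were the major urinary protein gene Mup3, which hepatocytes secrete, Ms4a7 and Trappc6b. For Igf1 they were Fabp5, Cbr2 and the platelet factor Pf4, and for Chil3 they were the neutrophil antigen Cd177, Cd244a and Sirpb1c. Il4ra lay nearest to Plin3, Csnk1g1 and Cdk8, and Tgfb1 to Rdh10, Lncpint and Pisd-ps3. The 4 values per gene, from shared arrays, make many such neighbours among 5306 genes.

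The genes that separated the fractions can be set beside their promoters. Those of Acod1 and Chil3, higher in Ly6C-hi, and of Retnla and Mrc1, higher in Ly6C-low, are shown as 250 bases before to 50 bases after the annotated start, 5′ to 3′, from RefSeq (GRCm38.p6), at chr14:103046762-103047061 (plus strand), chr3:106167515-106167814 (minus strand), chr16:48842359-48842658 (plus strand) and chr2:14229164-14229463 (plus strand). Capitals mark matches to the 5 motifs searched on both strands.
Acod1: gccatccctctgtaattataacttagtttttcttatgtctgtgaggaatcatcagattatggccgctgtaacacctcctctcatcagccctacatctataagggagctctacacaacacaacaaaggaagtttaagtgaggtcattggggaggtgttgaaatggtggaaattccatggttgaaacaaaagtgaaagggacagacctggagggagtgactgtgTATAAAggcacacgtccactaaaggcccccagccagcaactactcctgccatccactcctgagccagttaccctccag
Chil3: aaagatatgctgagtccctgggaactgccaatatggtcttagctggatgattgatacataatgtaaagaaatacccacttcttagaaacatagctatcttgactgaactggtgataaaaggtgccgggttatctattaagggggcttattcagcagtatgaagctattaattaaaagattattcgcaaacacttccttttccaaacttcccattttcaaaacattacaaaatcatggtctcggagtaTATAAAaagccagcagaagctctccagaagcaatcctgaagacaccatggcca
Retnla: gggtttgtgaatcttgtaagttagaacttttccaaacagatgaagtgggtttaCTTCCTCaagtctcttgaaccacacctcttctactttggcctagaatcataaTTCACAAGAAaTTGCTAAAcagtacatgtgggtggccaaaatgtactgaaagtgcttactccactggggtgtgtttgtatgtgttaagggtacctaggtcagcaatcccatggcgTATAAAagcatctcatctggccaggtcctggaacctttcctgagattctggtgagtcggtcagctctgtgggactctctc
Mrc1: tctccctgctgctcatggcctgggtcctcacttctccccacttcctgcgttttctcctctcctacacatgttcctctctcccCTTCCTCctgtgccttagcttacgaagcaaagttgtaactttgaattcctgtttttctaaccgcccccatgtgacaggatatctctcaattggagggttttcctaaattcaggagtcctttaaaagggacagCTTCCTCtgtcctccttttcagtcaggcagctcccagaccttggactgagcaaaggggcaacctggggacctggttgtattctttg
Of the 10 genes, 8 had an entry in the promoter table. The motifs were the STAT6 spacing, TTC and GAA 4 bases apart (in 6.95% of 32851 promoters), a kappa-B form, GGGA and TTCC 2 bases apart (1.47%), the C/EBP form TTGCNNAA (10.8%), the PU.1 form GAGGAAG (13.6%) and TATAAA (13.6%). Retnla held the STAT6 spacing as TTCACAAGAA, first base at -145 from the start site, and TTGCTAAA of the C/EBP form at -134, and it was the only one of the 8 windows with either. Mrc1 held the PU.1 form at -168 and -36, read on the opposite strand as CTTCCTC. Retnla (-197) and Igf1 (-60) held the PU.1 form once each. TATAAA began at -28 in Acod1, -30 in Retnla and -3 in Chil3. Socs3, Il4ra and Tgfb1 held none of the 5, and no window of the 8 held the kappa-B form. No matches overlapped. A match is only a description of these letters, and a missing one says nothing of a factor.

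Between genotype labels, Ly6C-hi cells showed lower readings of 5 genes and Ly6C-low cells higher readings of 2. In Ly6C-hi, 8 of the 10 genes reached the floor in the brighter array. None of these was at least 2-fold higher in labelled KO (2.34% of 4410 genes) and 5 were lower, where 20.6% of genes were. Acod1 stood at -3.06 (8.36-fold), as large a difference in that direction as 0.499% of genes had. The others were Arg1 (-1.19) and Il4ra (-1.12), and Igf1 (-1.80) and Retnla (-1.75) with labelled KO readings not above background. Chil3 (0.12), Tgfb1 (0.32) and Mrc1 (-0.45) were within 2-fold.

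Genes at the floor read lower as a group in labelled KO Ly6C-hi (median level 6.17, against 6.67 in WT Ly6C-hi). The median gene stood at -0.53 in this comparison, while the median receptor gene was higher in labelled KO Ly6C-hi (2.87 against 2.46). The median over all probe sets was higher in that array too, so the array was not lower as a whole. Centring takes the same value from every gene of an array and does not remove a difference that depends on level. With centred arrays, none of the 8 genes at the floor was 2-fold higher (8.07% of 4410 genes) and 3 were lower (6.53%), namely Acod1 (-2.56), Igf1 (-1.30) and Retnla (-1.25). Arg1 was then at -0.68 and Il4ra at -0.62, Mrc1 turned to 0.05, and Tgfb1 stood at 0.82 and Chil3 at 0.63. The neutrophil markers were at least 2-fold lower as deposited in 12 of 13 in this comparison, and their part in the difference of Acod1 was not tested. Siglecf, the 1 of 10 eosinophil and basophil markers that reached the floor, read 7.53 in WT Ly6C-hi and 5.18 in labelled KO Ly6C-hi. The others of that list were below 6 in all arrays and had no common direction in this comparison.

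In Ly6C-low, 7 of the 10 genes reached the floor in the brighter array. Of these, 2 were at least 2-fold higher under the KO label, Tgfb1 by 1.32 and Mrc1 by 1.06, where 6.89% of 4444 genes were. None was that much lower (0.81%). The others were Igf1 (-0.88), Arg1 (-0.69), Acod1 (-0.49), Retnla (-0.34) and Il4ra (0.60), with Chil3 under the floor. The median gene stood at 0.15. With centred arrays Mrc1 was at 0.86 and Igf1 at -1.07, leaving 1 gene higher (Tgfb1, 1.13; 4.56% of 4366 genes) and 1 lower (Igf1; 2.15%). Endothelial markers were at least 2-fold higher as deposited in 12 of 15 in this comparison, and their part in the reading of Mrc1 was not tested.

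Igf1 and Tgfb1 were the 2 genes on the same side of the genotype label in both fractions without overlap. Igf1 was higher in both WT arrays, as 13.2% of 5306 genes were, and Tgfb1 higher in both labelled KO arrays, as 3.54% were. With centred arrays these shares were 8.49% and 8.27%. In the limma fit the average label difference was -1.34 ± 0.51 for Igf1 (limma adjusted p = 0.78), 0.82 ± 0.49 for Tgfb1 (limma adjusted p = 1.0) and -1.78 ± 0.48 for Acod1 (limma adjusted p = 0.059). None of the 8 tested genes passed in limma, where 0.32% of all genes did (0.302% lower, 0.0188% higher in labelled KO), and 4 had an unadjusted p under 0.05 (Acod1, Arg1, Igf1 and Retnla). Acod1 passed under 2 of the other settings, lowess correction (limma adjusted p = 0.0042) and a floor of 7 (limma adjusted p = 0.019). Over all settings its adjusted p ran from 0.0042 to 1.0.

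The difference of differences, labelled KO minus WT of Ly6C-hi minus Ly6C-low, was negative for all 10 genes as deposited. The median of all 5306 genes was itself -0.67, and 32% of genes were at -1 or below (3.09% at 1 or above), against 4 of the 8 genes above the floor. Acod1 was at -2.57, since its fraction difference was 4.10 in WT and 1.53 under the KO label. Il4ra was at -1.73, Mrc1 at -1.51 and Retnla at -1.41. With centred arrays, 2 genes were at -1 or below, Acod1 (-1.87) and Il4ra (-1.03), against 8.04% of 5287 genes (12.3% at 1 or above), while Nos2, Arg1 and Chil3 turned positive. The 4 arrays leave nothing to test this difference with.

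Genes around the effectors were taken from fixed lists. Over all 5306 genes, limma called 2.6% higher and 4.17% lower in Ly6C-hi, and 0.0188% higher and 0.302% lower in labelled KO. Of the interleukin-4 and interleukin-13 pathway, 7 of 17 genes on the array reached the floor and 1 passed limma for the fraction: the histone demethylase gene Kdm6b rose in Ly6C-hi by 1.60 ± 0.45 (limma adjusted p = 0.0086). Interleukin-4 and interleukin-13 themselves read below 6 in all arrays (Il4 3.56 to 4.45, Il13 4.60 to 5.45). The receptor gene Il13ra1 read 8.62, 6.89, 7.28 and 7.55 in WT Ly6C-hi, WT Ly6C-low, labelled KO Ly6C-hi and labelled KO Ly6C-low, and the transcription factor gene Stat6 read 8.52, 7.46, 7.64 and 7.83. Il4ra had the same order of arrays, which 8.25% of 5306 genes shared (2.33% with centred arrays). Of 7 genes in this pathway, 3 were 2-fold or more higher in WT Ly6C-hi and none lower, beside 20.3% and 6.57% of all genes, with a median of 0.73 against 0.30. With centred arrays 2 of 7 were higher, beside 13% of all genes.

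Of the arginine genes, 11 of 15 on the array reached the floor. By limma 1 rose and 1 fell in Ly6C-hi, beside 2.6% and 4.17% of all genes. The mitochondrial arginase gene Arg2, a paralog of Arg1, read 8.28, 4.85, 5.62 and 4.44 and rose by 2.30 ± 0.61 (limma adjusted p = 0.004), the opposite direction to the readings of Arg1. Gatm, which uses arginine to make a creatine precursor, fell by 2.77 ± 0.62 (limma adjusted p = 0.00031). Arg2 entered the test only through WT Ly6C-hi, where it was high, and its other readings were not above background. Gatm entered it only through the Ly6C-low arrays, where it was high. Neither call is independent of the floor, and with all genes in the limma fit only that of Gatm was left. The arginine transporter gene Slc7a1 read 6.10, 5.21, 5.51 and 4.95. Slc7a2, its relative in activated macrophages, was below 6 in all arrays (3.40 to 4.51). None passed for the genotype label.

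Of 11 genes next to itaconate on the array, 9 reached the floor and none passed limma for fraction or label. The coactivator gene Nfkbiz read 9.17, 6.97, 7.50 and 7.03 and the antioxidant factor gene Nfe2l2 read 7.64, 6.48, 6.06 and 6.48. In Ly6C-hi, 3 of 9 were 2-fold or more lower in labelled KO, beside 20.6% of all genes, with a median of -0.54 against -0.53. With centred arrays 2 of 8 were lower, beside 6.53% of all genes. The succinate dehydrogenase genes Sdha and Sdhb, whose enzyme itaconate inhibits, read 6.54 to 7.21 and 6.47 to 6.94.

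Of the STAT3 and SOCS list, 11 of 19 genes reached the floor. By limma 2 rose and 2 fell in Ly6C-hi, beside 2.6% and 4.17% of all genes. The receptor genes Csf3r (2.90 ± 0.43, limma adjusted p = 3.8e-09) and Il6ra (1.64 ± 0.48, limma adjusted p = 0.014) rose. The shared chain Il6st fell by 3.18 ± 0.39 (limma adjusted p = 1.2e-13) and Lifr by 3.09 ± 0.52 (limma adjusted p = 2.2e-07). Lifr reached the floor only in the Ly6C-low arrays, where it was high, so its call is not independent of the floor. Csf3r is also on the neutrophil list. Of the other inhibitor genes on the list, Socs4 reached the floor in WT Ly6C-hi (6.08) and not elsewhere (5.72 to 5.88). Socs1 (5.04 to 5.23), Socs2 (4.57 to 4.67), Socs5 (3.96 to 4.30) and Cish (5.08 to 5.54) were, like Socs3, below 6 in all arrays. Il6 and Il10 were below 6 as well, at 3.57 to 4.84 and 3.72 to 4.52.

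Of the IGF genes, 7 of 16 reached the floor. By limma none rose and 2 fell in Ly6C-hi, beside 2.6% and 4.17% of all genes. The 2 were the binding proteins Igfbp7 (-4.44 ± 0.47, limma adjusted p = 8.3e-18) and Igfbp4 (-2.22 ± 0.52, limma adjusted p = 0.00075). Igfbp4 reached the floor only in the Ly6C-low arrays, where it was high, so its call is not independent of the floor. The receptor gene Igf1r read 6.61, 4.80, 5.15 and 5.54. Of the TGF-beta genes, 15 of 25 reached the floor. By limma 1 rose and 4 fell in Ly6C-hi, beside the same shares of all genes. Thbs1, which can activate latent TGF-beta, rose in Ly6C-hi by 1.28 ± 0.39 (limma adjusted p = 0.018) and fell under the KO label by 1.48 (limma adjusted p = 0.044), a call lost with centred arrays and with all genes in the fit. The coreceptors Eng (-3.58) and Tgfbr3 (-2.69), the latency proteins Ltbp4 (-2.68) and Lrrc32 (-2.36) fell, with limma adjusted p of 8.9e-10, 0.014, 0.0002 and 0.016. Eng is also on the endothelial list, and it reached the floor only in the Ly6C-low arrays. Tgfbr3, Ltbp4 and Lrrc32 reached it only in labelled KO Ly6C-low, where they were high. The calls of these genes are therefore not independent of the floor. In Ly6C-low, 5 of 14 TGF-beta genes were 2-fold or more higher in labelled KO and 1 lower, as deposited and with centred arrays. The shares of all genes were 6.89% and 0.81% as deposited, and 4.56% and 2.15% with centred arrays. The 5 were Eng, Tgfbr3, Ltbp4, Lrrc32 and Smad7. The first 4 were highest in labelled KO Ly6C-low and next in WT Ly6C-low, as the endothelial markers were (means 9.47 and 7.90, with 12 of 15 at least 2-fold higher in the same comparison), and the part of those cells was not tested. Smad7, the inhibitory TGF-beta target, read 6.68 in labelled KO Ly6C-low and 5.46 in WT Ly6C-low. The WT Ly6C-low readings of Tgfbr3 (5.63), Ltbp4 (5.90), Lrrc32 (5.75) and Smad7 were not above background (5.99). Their differences are therefore not exact sizes.

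Of 21 other classical activation genes on the array, 15 reached the floor. By limma 5 rose in Ly6C-hi, beside 2.6% of all genes, and 4 fell under the KO label, beside 0.302%. Il1b, Ptgs2 and Slc7a11 did both, by 2.19, 2.01 and 2.93 for the fraction and -1.58, -2.36 and -2.38 for the label. Il23a and Fpr2 rose in Ly6C-hi, and Cd80 fell under the KO label. Neutrophil markers moved the same way, with 12 of 13 rising in Ly6C-hi and Il1r2 and Mmp9 falling under the KO label by limma (adjusted p of 0.01 and 0.046, lost with centred arrays), and their part in this list was not tested. Il12b, the interleukin-12 subunit, and Ido1 were below 6 in all arrays (4.58 to 4.86 and 3.75 to 4.14). With centred arrays or with all genes in the limma fit, none of this list passed for the label, and with all genes none passed for the fraction. Il23a reached the floor only in WT Ly6C-hi, with its other readings not above background. Fpr2 and Slc7a11 reached it only in the Ly6C-hi arrays. The fraction calls of these genes are therefore not independent of the floor.

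Of other alternative activation genes, 11 of 19 reached the floor. By limma 2 rose and none fell in Ly6C-hi, beside 2.6% and 4.17% of all genes. The 2 were the beta-glucan receptor Clec7a (1.21 ± 0.34, limma adjusted p = 0.0087) and the interleukin-1 antagonist Il1rn (1.63 ± 0.51, limma adjusted p = 0.026). Retnla and Mrc1 fell in the same test. Mgl2 (3.87 to 4.72), Clec10a (4.11 to 4.67), Ccl17 (3.43 to 3.69) and Ccl22 (4.06 to 4.49), which interleukin-4 induces in mouse macrophages, were below 6 in all arrays. Others that interleukin-4 can induce were above it, such as Tgm2 (8.07 to 9.97) and Alox15 (6.27 to 7.60) in all arrays, Egr2 (5.89 to 8.06) in 3 and Ccl24 (5.93 to 6.35) in 3. Of the paralogs, 3 of 18 reached the floor. Chil4, close in sequence to Chil3, read 2.45 to 3.23. Retnlg, a neutrophil relative of Retnla, read 8.43, 6.81, 7.13 and 6.07, with the Ly6C-hi arrays above the Ly6C-low arrays, the reverse of Retnla. With all genes in the limma fit, the calls left among these pathway lists were Gatm, Il6st, Igfbp7 and Eng, all lower in Ly6C-hi.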

How the data were processed

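RNA of the 4 sorted fractions (5 ng, WT Pico reagents) went onto 1 array each, per the labels. The log2 values the authors deposited are gene-level RMA output of Expression Console, per the labels. That they are log2 was taken from their range. Software versions and the annotation build have no record in the sources used here. Array medians were 4.03 to 4.20 over 41345 probe sets, so scaling matters.

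Of these, 23521 had 1 gene symbol, 1814 several and 16010 none listed, and 23328 had an Entrez ID in RefSeq's table (GRCm38.p6). They gave 22180 genes, of which 5306 reached a log2 level of 6 in at least 1 array. Differences of 2 arrays were counted at 2-fold with the brighter array at 6 or above. Centring subtracted each array's median over genes at the floor. limma 3.58.1 (R 4.3.3) fitted fraction plus label with eBayes and a level trend, with 1 residual degree of freedom. Its prior degrees of freedom were infinite at the floor of 6 and 7.07 without it, so at the floor a gene's SE comes from the trend. The script was tested on simulated data, where it recovered 99.0% of genes with a set log2 difference of 2 and 100.0% with 4. Those data held no label by fraction difference, so they do not show how reliable the calls here are. The p-values measure no spread between replicate arrays, since there were none.

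The genes, lists, motifs and tests were chosen with earlier results of these data known. Named were the 10 genes with paralogs, Ptges, Ly6c2, 3 like genes each, and list members with the largest differences. One motif searched at first is not reported here. List genes named for passing limma or for lying below the floor were chosen after their values were seen. Quantile normalisation, lowess, the mean of probe sets, floors and the trend were varied. Python 3.11.15, pandas 2.3.3 and matplotlib 3.10.9 were used.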

Additional observations from a re-analysis of the deposited data

Results flagged for a closer look

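Differences with opposite signs in the groups compared are listed here. Each rests on 1 array per group and was not tested.

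The fraction difference, Ly6C-hi minus Ly6C-low, was 1.27 in WT and -0.46 under the KO label for Il4ra, 0.68 and -0.32 for Tgfb1, and 1.36 and -0.14 for Socs3. With centred arrays the values under the KO label were -0.08 for Il4ra, 0.06 for Tgfb1 and 0.24 for Socs3, so the signs differed only for Il4ra. Socs3 was under the floor in all arrays.

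The label difference, labelled KO minus WT, was -1.12 in Ly6C-hi and 0.60 in Ly6C-low for Il4ra, -0.45 and 1.06 for Mrc1, and -0.63 and 0.87 for Socs3. With centred arrays these were -0.62 and 0.41 for Il4ra, 0.05 and 0.86 for Mrc1, and -0.13 and 0.68 for Socs3, so the sign of Mrc1 turned in Ly6C-hi, where its labelled KO reading was not above background. The mean of the endothelial markers went from 7.90 in WT to 9.47 in labelled KO in Ly6C-low, the direction of Mrc1, and their part was not tested. In Ly6C-hi it was 5.04 and 4.45, with 1 of 15 markers at the floor in WT and 0 in labelled KO. No direction is read from those means.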

How the results depend on the processing

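No difference of at least 2-fold changed sign under centring, quantile normalisation, lowess or the mean of probe sets. Across the deposited, centred, quantile and lowess values, all 10 genes kept their sign between fractions in WT and between labels in Ly6C-low, 9 between labels in Ly6C-hi, 8 between fractions under the KO label and 7 in the difference of differences. Counts of genes 2-fold lower in labelled KO Ly6C-hi went from 5 to 3 with centring and with quantile normalisation. With centring, those in labelled KO Ly6C-low went from 2 to 1 higher and from 0 to 1 lower, and those in the difference of differences from 4 to 2 lower. The limma fraction calls over all genes were 359, against 606 centred, 573 with quantile normalisation, 608 with lowess, 235 with a floor of 7 and 74 with no floor, where 0 of the 10 genes passed (7 had an unadjusted limma p under 0.05, and no other tool was run). The label calls were 17, against 1 centred, 10 with quantile normalisation, 34 with lowess, 6 without a trend and 0 with no floor (486 of 22180 genes had an unadjusted limma p under 0.05). Acod1 was the 1 gene of the 10 that passed for the label, with lowess and with a floor of 7. The causes were not tested. Igf1 passed for the fraction in limma when centred (adjusted p = 0.044) or quantile normalised (0.04), and Arg1 with quantile normalisation (0.047), lowess (0.032) and a floor of 7 (0.038). Array noise cannot be estimated from 1 array per group. Leaving out an array leaves the limma model no residual. No paired analysis was possible because each group has 1 array and the labels give no replicate numbers.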
